A study of Drosophila melanogaster with 4 samples.

Results

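The genes described here are 10 of the 16612 genes in the study's table of nascent RNA levels. They were taken from the table by name: the ligands Pvf1, Pvf2 and Pvf3, the receptors Pvr and Egfr, the GTPase Ras85D, the kinase rl, the transcription factors pnt and aop, and the pathway inhibitor sty. All 10 were present under these symbols, and each row was a single RefSeq transcript on the dm3 build. The study profiled untreated Drosophila S2 cells with 2 libraries of 5'GRO-seq (replicates 1 and 2) and 2 libraries of GRO-seq, whose columns are named Sample3 and Sample4. S2 is 1 established line derived from embryos, no genotype or treatment was varied, and the labels do not say whether libraries came from separate cultures, so the spread between them may be technical.

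Pvr is the fly relative of the mammalian PDGF and VEGF receptors and is known for keeping embryonic blood cells alive and guiding their migration. Egfr is the fly's EGF receptor. Both are receptor tyrosine kinases that switch on Ras85D, which passes the signal through the kinases Raf and MEK to rl, the fly ERK. In the nucleus this kinase acts on the ETS factors pnt, an activator, and aop (also called Yan), a repressor of the same targets. The gene sty (sprouty) encodes an inhibitor of receptor tyrosine kinase signalling and is known as a feedback target of the pathway.

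GRO-seq captures RNA that engaged polymerases extend in isolated nuclei, and 5'GRO-seq keeps the capped ends of such RNA, which mark starts. Levels are given as FPKM, reads scaled to library depth and to the length of the transcript, measured from its start to its end with introns included. Values are per length, and levels of different genes are compared on this scale. Such scaling takes reads as evenly spread, and how they were spread along each gene was not measured. This limits comparisons between members, whose spans run from 2.5 kb at Ras85D to 59.5 kb at Pvf3. Whole reads recovered from the values gave totals of 6572511 reads for Sample3 and 2474820 for Sample4. From 13979543 reads of 5'GRO-seq replicate 1 the authors called 6782 start sites, and from 6710787 reads of replicate 2 they called 9387. Among markers of hemocytes, the blood cells that S2 resembles, 11 of 12 were above the median of all genes and NimC1 was the exception with a mean of 0.842 FPKM. For each of the other tissues 6 markers were examined, and those above that median numbered 2 for neurons, 2 for germline, 1 for muscle and 0 for fat body and gut. The median of protein-coding genes was higher, 3.33 FPKM. The hemocyte marker Pxn with 3.21 FPKM and the neuron marker brp with 2.41 FPKM lay between these medians. Summed over the hemocyte markers, Sample3 had 800 FPKM and Sample4 1501 FPKM. The collagen gene Cg25C made up most of that gap, with 276 and 863 FPKM. Without it the sums were 524 and 638 FPKM, and of all 12 markers 7 were higher and 5 lower in Sample4. In both libraries, 5 of the 6 fat body and gut markers were listed at 0.

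Most of the 10 genes were transcribed above the typical gene of the table. Egfr lay below it, and Pvf3 was close to the median of protein-coding genes, higher than 50.8% of them in Sample3 and 51.9% in Sample4. Of the 10 members, 9 had a mean FPKM above the median of all genes, a position that 50% of all rows and 54% of protein-coding rows hold. The median member had 43.8 FPKM in Sample3 and 43.9 FPKM in Sample4, whereas the median of all genes was 1.98 FPKM in Sample3 and 1.38 FPKM in Sample4. On the log2(FPKM + 1) scale the medians differed by 4.06. The difference was 3.39 against protein-coding genes, and 1.99 when members and genes of at least 1 FPKM were compared, where 7 of 9 members lay above the median. These counts and medians describe the members and were not tested. In bulk samples such as these, fewer cells transcribing a gene and less transcription per cell cannot be told apart.

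**Figure D1:**
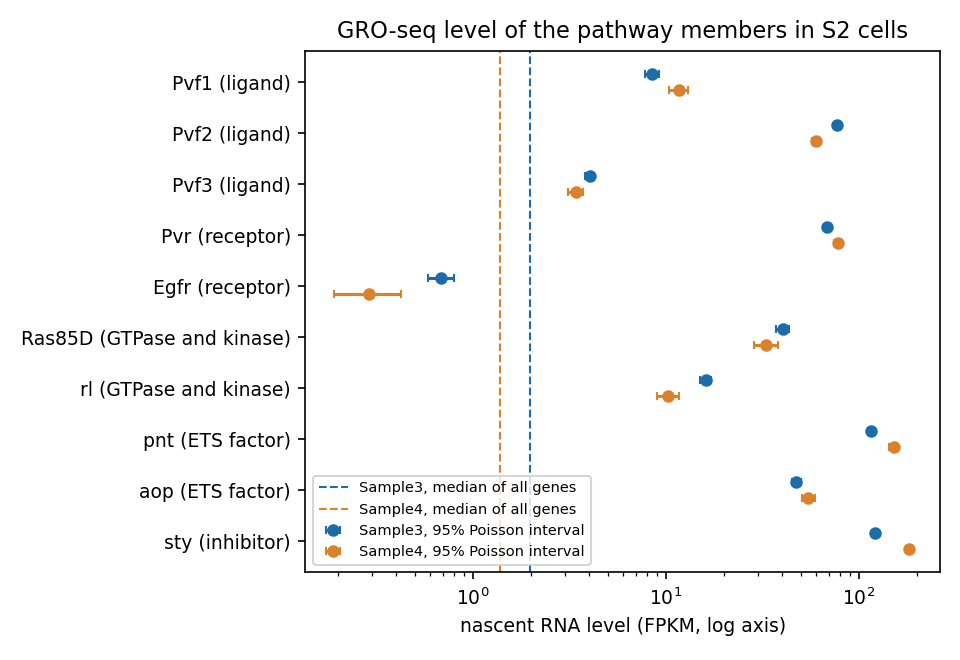
Nascent RNA level of each member in FPKM (log axis) in Sample3 and Sample4, grouped by role, with bars for 95% exact Poisson intervals of the reads and dashed lines at each library's median over all genes. Egfr lies left of both lines at 0.685 and 0.290 FPKM, and the other 9 genes lie to their right.

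Among the ligands, Pvf2 was transcribed at 5.12 to 19.2 times the level of its relatives. Pvf2 had 77.3 FPKM in Sample3 (95% exact Poisson interval 75.6 to 79.0) and 59.8 FPKM in Sample4 (57.3 to 62.3), from 7670 and 2233 reads. Pvf1 had 8.50 FPKM in Sample3 (7.82 to 9.23) and 11.7 FPKM in Sample4 (10.4 to 13.1). Pvf3 had 4.02 FPKM in Sample3 (3.83 to 4.23) and 3.42 FPKM in Sample4 (3.12 to 3.73). The libraries' values of the ligands did not overlap, with Pvf2 highest and Pvf3 lowest in both. These intervals, like all others here, cover counting error only.

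The ratio of Pvf2 to Pvf3 was 19.2 in Sample3 and 17.5 in Sample4, and that of Pvf2 to Pvf1 was 9.09 and 5.12. Pvf2 and Pvf3 are neighbours on chromosome 2L and run in the same direction, with the end of Pvf3 13553 bp upstream of the start of Pvf2. They differ in length as well as level: Pvf2 spans 15.1 kb (2L, 7069536 to 7084635, minus strand) and Pvf3 59.5 kb (2L, 7098188 to 7157695, minus strand). A noncoding row on the same strand inside Pvf2, CR44611, held 259 reads in Sample3 and 63 in Sample4, equal to 3.38% and 2.82% of the Pvf2 reads. Most reads of Pvf2 therefore lay outside that row. On the opposite strand inside Pvf3, the noncoding row CR44612 held 87 and 42 reads, equal to 5.53% and 8.35% of the Pvf3 reads. The sources used here do not say whether counting used strand, and without it reads of such overlapping rows cannot be told apart.

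Pvf2 and Pvf1 had a start site in both 5'GRO-seq lists, and Pvf3 in 1 of them. A site was taken as at the 5' end when its centre lay within 100 bp of the annotated end on the same strand. Pvf2 had such a site 2 bp downstream of the end, at 7084633, in both 5'GRO-seq lists. The lists carry no score, but sites at the same base in both had a similar place in the file order of each (Spearman's rho 0.820 across 1621 sites, a description in which both orders come from the same promoters). The Pvf2 site stood 67th of 6782 in replicate 1 and 69th of 9387 in replicate 2, which is within the leading 0.988% and 0.735% of the files.

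Pvf1 (X, 18726715 to 18736934, plus strand) had a site 32 bp downstream of its end, at 18726747, in both lists. It stood at place 2814 in replicate 1 and 1624 in replicate 2. Pvf3 had a site exactly on its annotated first base, 7157695, in replicate 1, at place 493, and none within 100 bp in replicate 2. Replicate 2 instead held 7 same-strand sites spread through the body of Pvf3, 5.9 to 53.6 kb from its start, and 3 in the body of Pvf1. None of these 10 sites was found in replicate 1 within 5 bp, as that list held no same-strand site in the body of either gene. The share of all inside sites common to both lists was not computed.

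The receptors stood at opposite ends. Pvr had 68.0 FPKM in Sample3 (95% exact Poisson interval 66.0 to 70.1) and 77.9 FPKM in Sample4 (74.4 to 81.6), higher than 97.4% and 97.6% of protein-coding genes. Egfr had 0.685 FPKM in Sample3 (0.585 to 0.796) and 0.290 FPKM in Sample4 (0.191 to 0.423), higher than 39.5% and 36.9% of them. The Egfr values rest on 169 and 27 reads over 37.6 kb (2R, 17409925 to 17447482, plus strand). Pvr exceeded Egfr 99.3-fold in Sample3 and 269-fold in Sample4, so the size of this ratio varied between libraries while its direction did not.

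Egfr, with its low level, had a start site at its 5' end in both lists. The site lay 1 bp downstream of the annotated end in each, at 17409926, and stood at place 3536 in replicate 1 and 6343 in replicate 2. Of the 3539 genes with a mean above 0 and below 1 FPKM, 7.29% had a site at the 5' end in replicate 1, 3.25% in replicate 2, and 1.92% had one in both lists within 5 bp. Egfr was the only member in that range of levels. No same-strand site was listed inside the Egfr gene in either replicate.

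At Pvr the 5' end of the table's transcript and the start site foremost in file order did not coincide. The transcript in the table (2L, 8221127 to 8230677, minus strand) had a site 3 bp inside its 5' end in replicate 1, at place 2340, and none there in replicate 2. A second site on the same strand lay 9198 bp further upstream, at 8239875, in both lists. It stood 35th of 6782 in replicate 1 and 244th of 9387 in replicate 2. The nearest upstream gene of the table on that strand, Spn28F, was listed at 0 in both GRO-seq libraries and ended 9737 bp from the Pvr transcript. Pvr has 13 transcript accessions in the RefSeq table of assembly Release 6, and the deposited FPKM table holds 1 transcript per gene. Which transcript the upstream site belongs to was not tested.

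The GTPase and the kinase were transcribed at intermediate levels. Ras85D had 40.3 FPKM in Sample3 (95% exact Poisson interval 37.3 to 43.4) and 33.1 FPKM in Sample4 (28.7 to 37.9). It was the only member whose counting intervals in the 2 libraries overlapped. The kinase gene rl had 16.1 FPKM in Sample3 (15.1 to 17.1) and 10.3 FPKM in Sample4 (9.03 to 11.7), and Ras85D exceeded it 2.51-fold and 3.21-fold. Both genes lay above the median of all genes in each library, rl 8.13-fold and 7.48-fold above it.

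No same-strand site was listed at Ras85D (3R, 5336283 to 5338789, minus strand), neither within 100 bp of its 5' end nor inside the gene. The gene rl lies in the heterochromatic sequence 2RHet of dm3 (198689 to 207864, plus strand). It had a site 38 bp downstream of its 5' end in replicate 1, at 198727 and place 1349, and none there in replicate 2. The replicate 2 list held 2 sites in the distal part of rl, at 71.1% and 86.2% of its length. A site had to exceed the GRO-seq library of the same number 4-fold to be listed, and the false discovery threshold required 20 reads in replicate 1 and 14 in replicate 2, so a gene without a listed site may still initiate there.

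Both ETS factor genes were strongly transcribed over their tabled transcripts, pnt more than aop. Transcription outside these transcripts does not enter the values. The activator pnt had 116 FPKM in Sample3 (95% exact Poisson interval 112 to 120) and 151 FPKM in Sample4 (144 to 159). The repressor aop had 47.4 FPKM in Sample3 (45.0 to 49.9) and 54.7 FPKM in Sample4 (50.6 to 59.1). Their values did not overlap, and pnt exceeded aop 2.44-fold in Sample3 and 2.77-fold in Sample4. Both transcripts of the table are short, 4.3 kb for pnt (3R, 19116666 to 19120960, minus strand) and 4.7 kb for aop (2L, 2156792 to 2161527, minus strand). The Release 6 RefSeq table lists 4 transcript accessions for pnt and 5 for aop.

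Neither ETS gene had a site within 100 bp of the 5' end of its tabled transcript. At pnt the closest site in replicate 1 lay 185 bp upstream, at 19121145, and stood 96th of 6782. Further upstream on the same strand, replicate 1 held sites at 19.1 and 50.9 kb from the end and replicate 2 at 1.2, 37.8 and 46.5 kb. The one 50.9 kb upstream stood 178th in replicate 1. Replicate 2 also had a site inside pnt, at 95.9% of its length and 496th of 9387. None of the pnt sites was shared between the lists within 5 bp, and the share of such sites in both lists over all genes was not computed.

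At aop the same-strand sites lay 11.4 and 12.6 kb upstream in replicate 1 and 7.6, 10.6 and 15.7 kb upstream in replicate 2. The next gene of the table on that strand, CR44066, lay 25448 bp upstream of aop. None of these aop sites was shared between the lists, and the share of upstream sites in both lists over all genes was not computed. The foremost of the aop sites in file order stood at place 2383, in replicate 2, behind the foremost ones upstream of pnt and Pvr.

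The inhibitor gene sty had the highest mean of the group. It had 122 FPKM in Sample3 (95% exact Poisson interval 120 to 124) and 182 FPKM in Sample4 (177 to 186), from 12129 and 6808 reads over 15.1 kb (3L, 3402816 to 3417961, minus strand). It was higher than 98.8% of protein-coding genes in Sample3 and 99.0% in Sample4. Its start site lay 2 bp inside the annotated end, at 3417959, in both lists. It stood 23rd of 6782 in replicate 1 and 36th of 9387 in replicate 2, the leading place among all member sites in each. The miRNA row mir-2282 inside sty on the same strand held 0.338% and 0.162% of its reads.

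**Figure D2:**
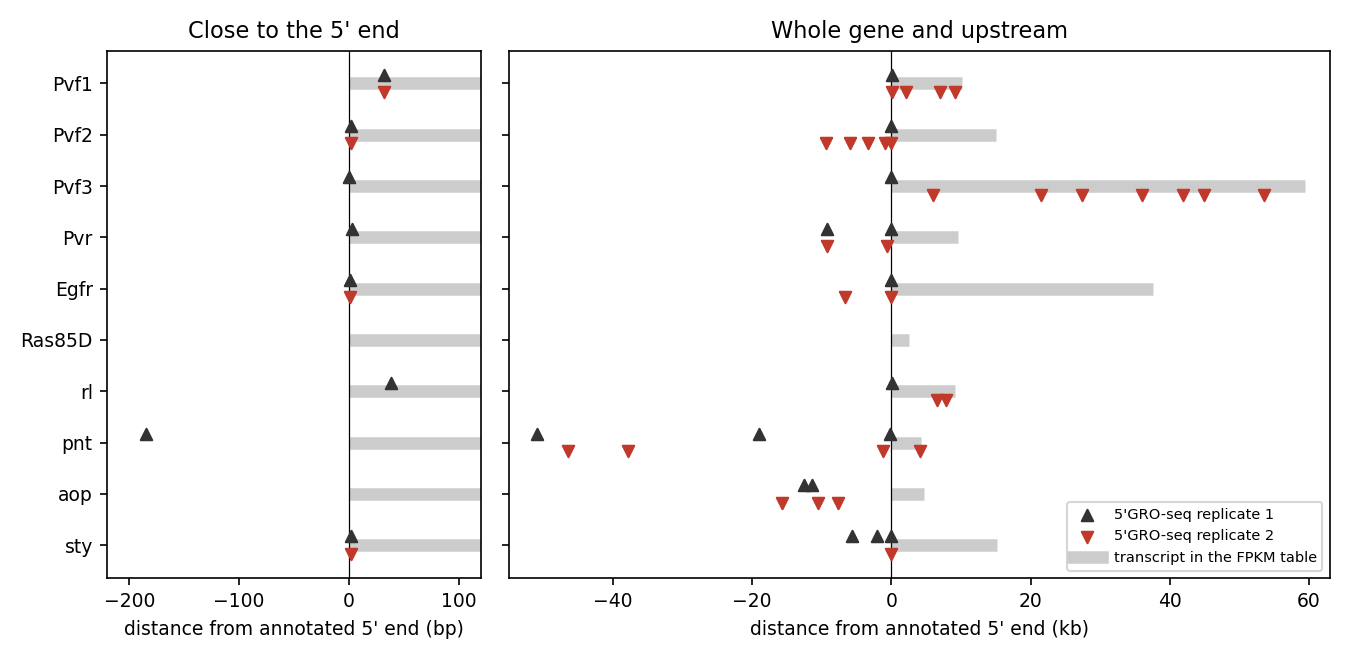
Same-strand start sites of both 5'GRO-seq lists around each member, as distance from the annotated 5' end of the transcript in the FPKM table (grey bars), in bp on the left and in kb on the right, with sites upstream shown as far as the next tabled gene on the strand. Sites of both lists coincide at Pvf1, Pvf2, Egfr and sty close to the end and at Pvr 9.2 kb upstream of it, while the 13 sites inside genes all come from replicate 2.

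In order of mean level the members ran sty with 152 ± 42.3 FPKM, pnt with 133 ± 25.3, Pvr with 73.0 ± 7.02, Pvf2 with 68.5 ± 12.4 and aop with 51.1 ± 5.17 FPKM. Below them followed Ras85D with 36.7 ± 5.09, rl with 13.2 ± 4.08, Pvf1 with 10.1 ± 2.24, Pvf3 with 3.72 ± 0.429 and Egfr with 0.488 ± 0.279 FPKM (SD, n = 2 libraries for every gene). The order of Pvr and Pvf2 turned between the libraries, as did that of rl and Pvf1, so these pairs are not resolved. The ranges of sty and pnt overlapped across libraries, but sty was the higher in each, with counting intervals apart in both. The other neighbouring pairs did not overlap across libraries, although within Sample4 the counting intervals of Pvf2 and aop met. With 2 libraries of 1 condition no test across samples was made.

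The libraries moved different members in different directions. Sample4 was higher than Sample3 for 5 members, Pvf1, Pvr, pnt, aop and sty, and lower for the other 5. The log2 difference, Sample4 minus Sample3, was largest upward at sty with 0.58 and largest downward at Egfr with -1.24, where Sample4 had 27 reads. The difference at rl was -0.64. Over 3443 protein-coding genes with at least 100 reads in both libraries, the median of this difference was 0.11 with an SD of 0.57. Of the 9 members with that many reads, 8 lay within 1 SD of that median, and rl lay outside it. The share of the 3443 genes within 1 SD was not counted, so these counts do not set the members apart from other genes.

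**Figure D3:**
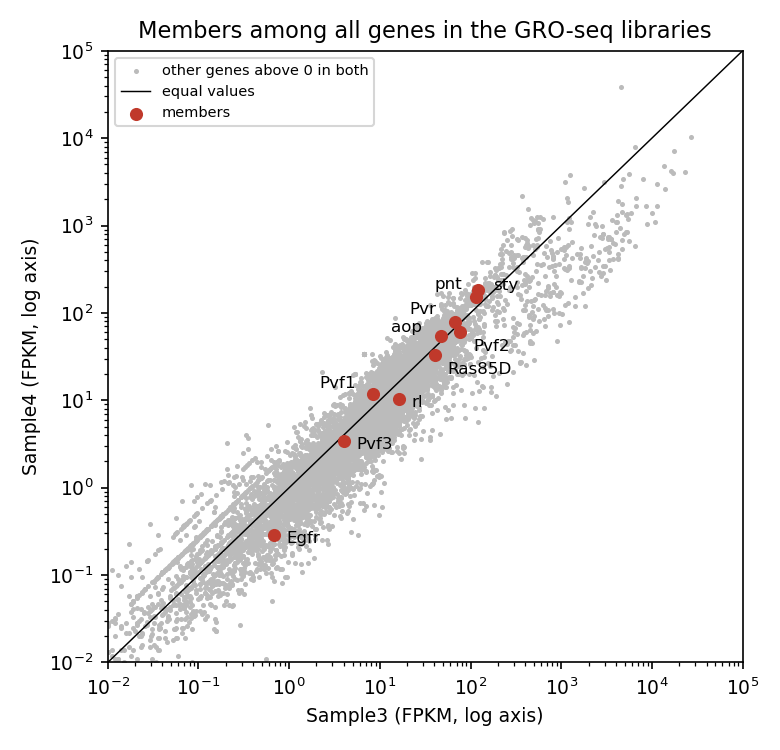
Level of every gene above 0 in both GRO-seq libraries, Sample3 against Sample4 in FPKM on log axes, with the 10 members in red and a line of equal values. The members lie within the cloud of other genes, with Pvf1, Pvr, pnt, aop and sty above the line and the other 5 below it.

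Start sites at the 5' end were listed for 7 members in replicate 1, against 24.5% of all genes and 42.8% of genes with a mean of at least 1 FPKM. In replicate 2 they were listed for 4, against 14.8% and 26.3%. The same 4 genes, Pvf1, Pvf2, Egfr and sty, had a site in both lists within 5 bp, against 7.84% and 13.9%, and in all 4 the sites were at the same base. Egfr falls outside the filter at 1 FPKM, which leaves 6, 3 and 3 of the other 9 members for the second shares. No test was made on these counts of 10 genes.

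Sites at the 5' end, by definition within 100 bp of it, were compared by their offset. Sites further away, such as those upstream of Pvr, pnt and aop, do not enter. Among members with a site at the 5' end the median offset was 2 bp downstream in each list, against 6 bp over 4066 genes in replicate 1 and 7 bp over 2451 genes in replicate 2. In replicate 1, 5 of 7 member sites were within 5 bp of the end, at Pvf2, Pvf3, Pvr, Egfr and sty, against 36.8% over all genes with such a site. In replicate 2 the number was 3 of 4, against 34.6%. Among these sites, those of Pvf1 and rl, at 32 and 38 bp, were the most displaced.

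Sites inside genes were listed for more genes in replicate 2 than in replicate 1, over all genes as well as at the members. In replicate 1 no member had a same-strand site more than 100 bp inside its 5' end, a class that 3.08% of all genes hold. In replicate 2, 4 members had 13 such sites, against 12.9% of all genes: Pvf3 with 7, Pvf1 with 3, rl with 2 and pnt with 1. Among 3869 genes of at least 1 FPKM and at least the 2506 bp of the shortest member, Ras85D, the shares were 8.81% in replicate 1 and 39.3% in replicate 2, in which 9 members, all but Egfr, take part. Of these 9 members, 0 had such a site in replicate 1 and 4 in replicate 2. These counts lie near those shares, and no test was made. Pooled per 10 kb, the 9 members held 0.998 inside sites in replicate 2, against 0.353 for those genes. Of the 13 sites behind that density, 7 were in Pvf3. Replicate 1 listed no such site at a member, so none of the 13 could have a replicate 1 site within 5 bp. The share of all inside sites common to both lists was not computed, so this lack of overlap is a description only. The closest of the 13 to the 5' end of another tabled gene on the strand was the one in pnt, at 929 bp.

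Upstream of the tabled transcripts, as far as the next gene on the same strand, replicate 1 held 8 sites at 4 members and replicate 2 held 13 at 5 members. Such sites were listed for 13% of all genes in replicate 1 and 14.2% in replicate 2, and for 18.3% and 19.8% of genes of at least 1 FPKM. At that level, 4 of 9 members had one in each list. The stretch searched was longer at the members, with a median of 12128 bp, against 3989 bp over all genes, and the part of this in the counts was not tested. The site 9198 bp upstream of Pvr was the only one common to both lists. Over all genes, the share of upstream sites common to both lists was not computed, so this count is a description only. Between Pvf3 and Pvf2, replicate 2 had 4 sites, 0.9 to 9.4 kb upstream of Pvf2, and replicate 1 had none. Replicate 1 alone had 2 sites upstream of sty, at 2.0 and 5.6 kb, and replicate 2 alone had 1 upstream of Egfr, at 6.7 kb, and 1 more upstream of Pvr, at 674 bp. This search was added after the sites were seen, and whether these sites start transcripts of the members was not tested.

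In a wider pathway list, the adaptors, cascade genes, inhibitors and nuclear factors were all above the median of all genes. Most of the other receptors on that list were below it. A list of 51 symbols of receptor tyrosine kinase and Ras signalling outside the 10 members was examined by role, and 49 were found in the table. The symbols Gap1 and Raf were not among them, and Raf is the gene listed as phl. Of the 49 genes 40 were above the median of all genes, with a list median of 16.3 FPKM against 1.77 FPKM for all genes. These are counts of a list chosen with the results known, and no test was made. Some of the 40 lay below the median of protein-coding genes, 3.33 FPKM. They were the cascade gene Src64B with 3.32 FPKM, the receptor Alk with 2.92, and the ligands trk with 2.93 and bnl with 2.32. Counts by role against that median were not made.

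Among the 5 other receptor tyrosine kinases of the list, 1 was above the median of all genes. That position is held by 50% of all rows and 54% of protein-coding rows. Alk had the highest mean with 2.92 ± 0.361 FPKM, and tor, the receptor that patterns the ends of the embryo, the lowest with 0.127 ± 0.0361 FPKM (SD, n = 2). The list does not hold every receptor tyrosine kinase of the table. Outside it, InR had 41.8 FPKM in Sample3 and 38.1 FPKM in Sample4, Nrk 6.49 and 5.79, and Ror 6.10 and 0.995. The share above the median over all such receptors was not counted. All 7 adaptors and exchange factors of the list were above the median of all genes. They ranged from mbc, an adaptor-linked activator of Rac known to act downstream of Pvr, with 35.0 ± 8.91 FPKM, to the adaptor Crk with 8.84 ± 4.54 FPKM (SD, n = 2). All 11 genes of the kinase cascade were above it too, from 14-3-3epsilon with 90.9 ± 12.6 FPKM to the kinase Src64B with 3.32 ± 0.417 FPKM (SD, n = 2). The Raf gene phl, singled out after its values were seen, had a site at the 5' end in both lists, 34 bp downstream in replicate 1 and 39 bp in replicate 2.

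Inhibitors and nuclear factors of the list were likewise above the median of all genes, 8 of 8 and 4 of 4. The transmembrane inhibitor kek1 had 31.1 ± 0.992 FPKM and the Ras GTPase activator Nf1 had 8.65 ± 1.59 FPKM (SD, n = 2), the highest and lowest of the inhibitors. The repressor cic, which ERK signalling relieves, had 55.8 ± 17.9 FPKM and the ETS factor Ets21C 16.4 ± 3.08 FPKM (SD, n = 2). Ligands were mixed, with 7 of 10 above the median of all genes. The EGF receptor ligand spi had 62.0 ± 4.94 FPKM (SD, n = 2), whereas boss, a ligand of sev, was listed at 0 in both libraries. Of the 4 ligand-processing genes 2 were above it: the protease gene rho had the highest mean, 30.6 ± 9.72 FPKM, and its relative ru the lowest, 0.084 ± 0.017 FPKM (SD, n = 2).

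**Figure D4:**
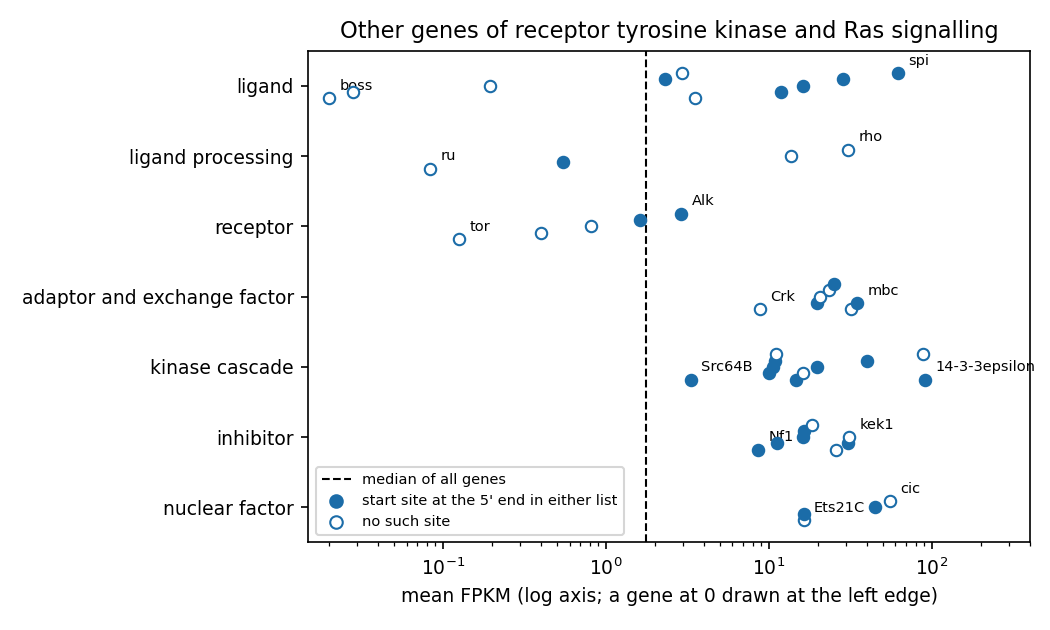
Mean FPKM (log axis) of the 49 other pathway genes by role, filled where either 5'GRO-seq list has a site within 100 bp of the 5' end, with the highest and lowest gene of each role named and a dashed line at the median of all genes, 1.77 FPKM. The receptors other than Alk lie left of the line, and all adaptors, cascade genes, inhibitors and nuclear factors lie to its right.

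Start sites of the list were present at 21 of 49 genes (42.9%) in replicate 1, against 24.5% of all genes, and at 16 (32.7%) in replicate 2, against 14.8%. Among the 41 genes of at least 1 FPKM the share was 48.8% in replicate 1, against 42.8% of all genes at that level, and 39% in replicate 2, against 26.3%. At 10 genes the lists had a site within 5 bp of each other, which is 20.4% of the 49, against 7.84% of all genes, and 24.4% of the 41, against 13.9%. At 9 of the 10 the sites were at the same base, and these genes are named as a description. The ligands spi, at 3 bp, and grk, on the annotated base, belonged to these 9. So did mbc at 32 bp, Src42A at 37 bp, 14-3-3epsilon at 44 bp and Ras64B, a relative of Ras85D, at 17 bp. The remaining 3 were inhibitors: vap, a Ras GTPase-activating protein, at 42 bp, Spred, a relative of sty, at 13 bp, and the ERK phosphatase gene Mkp3 at 4 bp.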

How the data were processed

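Nascent RNA of S2 cells was measured by 5'GRO-seq and GRO-seq. The authors deposited GRO-seq levels as FPKM, 1 RefSeq transcript per gene on dm3; how reads were counted is not given in the sources used here. Multiplied by transcript length, 99.95% and 99.96% of 4036 and 5050 low values were whole reads (tolerance 0.1), which gave depth and exact Poisson intervals at the 95% level. Start sites were called per library with HOMER, per the file headers, as 151 bp intervals at least 300 bp apart, above 4-fold over the GRO-seq library of the same number and over the surrounding 1000 bp. The score column of the deposited lists holds 1 constant, so positions and the order of sites in each file were used. Whether that order follows the strength of a site was not tested. Per the submitters' processing notes, HOMER 4.7 and Bowtie2 2.1.0 were used with CASAVA 1.8.2 on dm3.

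Sites were placed by their centre. Genes were named by this rule: all 10 members, the highest and lowest of each role in the wider list, and its genes with both lists at the same base. Genes of the wider list between the medians of all genes and of protein-coding genes were also named, after the values were seen. Members and lists were chosen with earlier results of these data known. All 10 accessions carry the same symbol in a RefSeq table of Release 6. Planned motif searches in promoters were not analysed here. Read recovery and site placement were tested on simulated data. Python 3.11.15, numpy 2.4.6, pandas 2.3.3, scipy 1.17.1 and matplotlib 3.10.9 were used. Other pseudocounts, filters, distances and leaving out a library were tried.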

Additional observations from a re-analysis of the deposited data

How the results depend on the processing

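The difference between the members' median and that of all genes, 4.06 on the log2(FPKM + 1) scale, was 4.71 with a pseudocount of 0.1, 1.99 among genes of at least 1 FPKM, where Egfr drops out, and 3.39 against protein-coding genes, an alternative added after seeing the data. In Sample4 alone it was 4.195 and in Sample3 alone 3.91. The number of members above the median of all genes, 9, was 7 of 9 among genes of at least 1 FPKM and 9 under the other 3 alternatives. Sites at the 5' end were found for 7 or 8 members in replicate 1 and for 4 in replicate 2 at 50 and 500 bp, the added gene at 500 bp being pnt. In the leading part of each file, 3391 and 4693 sites, 6 and 3 members had one, and 3 had one in both lists. The 4 members with inside sites in replicate 2, and 0 in replicate 1, were the same number under each alternative. With 2 libraries, leaving out one gives only the other's value. Depth limits Egfr most. No paired analysis was possible because the assays measure different things and the GRO-seq columns carry no replicate number.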

Other observations

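On the strand opposite to the members, from 500 bp upstream of the 5' end to the end of the transcript, replicate 1 held 3 sites and replicate 2 held 9, and none was common to both lists within 5 bp. In replicate 1, the site near Ras85D lay 272 bp upstream of its 5' end and 12 bp from the annotated 5' end of Rlb1, the divergent neighbour with 4.87 FPKM in Sample3 and 5.66 FPKM in Sample4. The other replicate 1 sites lay 194 bp upstream of Pvf1 and 3.9 kb inside Pvf2. In replicate 2, opposite-strand sites lay inside Pvf3 (4 sites), Pvf2 (3 sites), rl (1 site) and sty (1 site). No opposite-strand site was listed at Pvr, Egfr, pnt or aop in either list. The share of all genes with opposite-strand sites was not computed, so these counts and their lack of overlap are a description only.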
